A study of Macaca mulatta with 45 samples.

Results

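The circadian clock genes followed here are PER1, PER2, PER3, CRY1, CRY2, BMAL1 (ARNTL in older annotation), CLOCK, NR1D1, NR1D2 and DBP. These 10 genes were taken by name and have 15 of the 47231 probes with a value on all arrays, in a table that names 20046 genes. RNA of fat from adult male rhesus monkeys (Macaca mulatta, aged 7 to 13 years) was hybridized to 45 human HT-12 V4 bead arrays. After a baseline on chow, 10 of 24 animals were assigned to a high-fat, high-sucrose diet with resveratrol, a plant polyphenol, given at 80 mg per day in year 1 and 480 mg per day afterwards. Another 10 animals ate the high-fat, high-sucrose diet (HFS) with a placebo treat, and 4 ate the standard diet. HFS drew 42% of its energy from fat and held about 27% sucrose by weight, and the standard diet drew 13% from fat and held less than 5% sucrose. Visceral fat at 24 months gave 4 resveratrol, 4 HFS and 2 standard-diet arrays, subcutaneous fat at 24 months gave 4, 5 and 2, and subcutaneous fat at baseline gave 10, 10 and 4. The animals lived on a fixed light and dark cycle and were fed meals, per the labels, which do not give the hour at which fat was taken.

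The clock is a transcriptional loop that runs in nearly every cell, fat cells included. CLOCK and BMAL1 form the activating pair, which drives the PER and CRY genes, and the PER and CRY proteins in turn block that pair. The same pair drives NR1D1 and NR1D2, nuclear receptors (REV-ERB alpha and beta) that repress BMAL1, and DBP, a factor that turns on clock-controlled genes. In mammals the transcripts of the PER, NR1D and DBP genes swing strongly over the day, BMAL1 runs in nearly the opposite phase, and CLOCK changes little.

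Between 14386 and 18673 probes were detected per array (detection p under 0.05), and arrays of one group correlated at Pearson r = 0.90 to 0.98 across 15181 probes. More probes were detected in subcutaneous fat at 24 months with resveratrol (17117 to 18673, 4 arrays) than with HFS (15712 to 16322, 5 arrays). Of 8 adipocyte markers, PLIN1, FABP4, LIPE, CIDEC, PNPLA2 and LEP were detected on all 45 arrays and LPL on 43, whereas ADIPOQ, a defining marker of the fat cell, was detected on 5. The deposited table writes its values in 2 ways. Set A of the subcutaneous arrays (19 arrays, median intensity 48.5 to 59) holds all 11 of the 24-month arrays and 8 baseline arrays, and set B (16 arrays, 77.8 to 97.3) holds the other baseline arrays. The 10 visceral arrays are a set of their own (55.5 to 62.2), so depot and array set cannot be told apart. In whole tissue, fewer cells of a type and less RNA per cell cannot be told apart either.

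Values are background-corrected, quantile-normalized log2 intensities, and the probes were designed on human sequence, so a level is set only against the same probe on other arrays. PER3, PER2, CRY1 and CLOCK each had 1 probe that was detected on all 45 arrays, and these are the most widely detected members. The dimmer further probes of PER2 and CLOCK did not follow the bright ones in comparisons given below. BMAL1 was detected by probe ILMN_2405305 on 39 arrays, 10 of 10 visceral, 17 of 19 of set A and 12 of 16 of set B. NR1D2 was detected on 29 arrays, of which 2 were visceral, 17 of set A and 10 of set B. CRY2 was detected on 20 arrays and NR1D1 on 6.

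PER1 and DBP were detected on 0 of 45 arrays and entered no test. PER1 lay between 4.26 and 4.50 and DBP between 4.32 and 4.84 on the log2 scale, without a measured level in any group. Most further probes of these members were dim. PER2 has 2 further probes, ILMN_1668708 detected on 5 arrays and ILMN_1740915 on 21, against 45 for ILMN_1738095. CRY1 was detected by ILMN_1760593 on all arrays and by ILMN_2202637 on 23, of which 18 were of set A, 5 of set B and 0 visceral. The second BMAL1 probe, ILMN_1731476, was detected on 2 arrays, and the second CLOCK probe, ILMN_1682399, on 28.

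**Figure D1:**
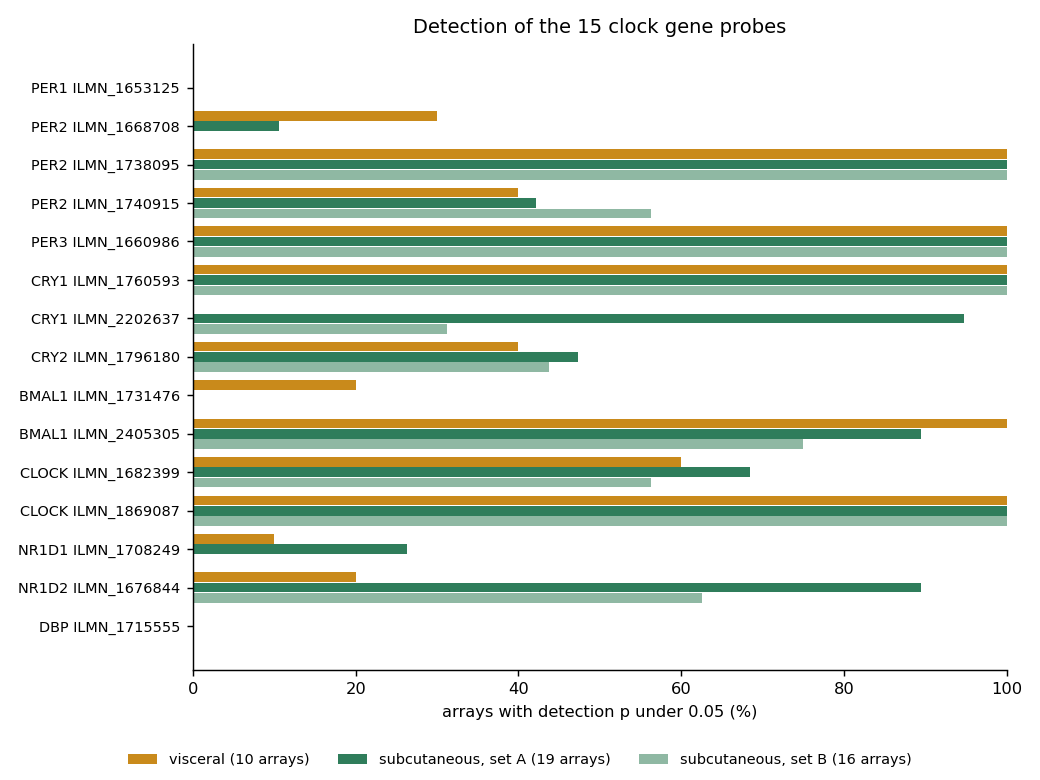
Share of arrays (%, x axis) on which each of the 15 clock gene probes (y axis) had a detection p under 0.05, with bars for the 10 visceral, 19 set A and 16 set B subcutaneous arrays. PER1 and DBP have no bar, and the CRY1 probe ILMN_2202637 has bars for subcutaneous arrays only.

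A gene was tested where a probe was detected on no fewer arrays than it was undetected on in at least 1 group of the fit, which left 7 members in visceral fat (without PER1, NR1D2 and DBP) and 8 in subcutaneous fat and between depots. NR1D1 entered the subcutaneous fit only through the 24-month resveratrol group (3 of 4 arrays detected) and the visceral fit only through the standard-diet group (1 of 2), and NR1D2 entered the fit of both depots only through subcutaneous groups. A change is the difference of group means on the log2 scale with its standard error, and all tests of change are limma's moderated test, two-sided, with Benjamini-Hochberg adjusted p over all genes of a comparison. A gene passed at an adjusted p under 0.05.

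Adding resveratrol to HFS went with more PER2 and NR1D2 in subcutaneous fat at 24 months. PER2, a repressor of the CLOCK and BMAL1 pair, was 1.9-fold and NR1D2, the REV-ERB beta repressor, 1.85-fold brighter than with HFS alone. These 2 of 8 tested members rose and 0 fell, where 2.23% of all 12130 genes tested passed, 1.96% upwards. The members' median change was 0.22, against -0.04 over all genes.

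PER2 read 8.43, 9.18, 8.51 and 9.65 with resveratrol, against 8.17, 8.29, 8.29, 7.54 and 7.79 with HFS. Every resveratrol array was above every HFS array, with resveratrol arrays 2 and 4 highest. The change was 0.92 ± 0.23 (SE, limma adjusted p = 0.0181). The other PER2 probes, near background, gave -0.20 ± 0.11 for ILMN_1668708 (limma adjusted p = 0.453) and 0.05 ± 0.13 for ILMN_1740915 (limma adjusted p = 0.928), so the PER2 result rests on the 1 bright probe. The mean of the 3 probes changed by 0.26 (limma adjusted p = 0.32), and with median scaling in place of quantile normalization the bright probe changed by 1.51 (limma adjusted p = 0.00677).

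NR1D2 read 5.44, 5.90, 6.07 and 6.55 with resveratrol, all detected, against 5.21, 5.35, 4.95, 4.96 and 5.02 with HFS, where the array at 4.95 was not detected. The groups did not overlap, and the HFS values lay close to background. The change was 0.89 ± 0.22 (SE, limma adjusted p = 0.021), and 0.40 without background correction (limma adjusted p = 0.0212). Neither call was steady against single arrays. PER2 did not pass without resveratrol array 2 or 4 (limma adjusted p = 0.0886 and 0.211) or HFS array 4 or 5 (0.0748 and 0.053). NR1D2 did not pass without resveratrol array 2, 3 or 4 (limma adjusted p = 0.0524, 0.0501 and 0.206) or HFS array 3 or 4 (0.0577 and 0.0587).

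The number of detected probes does not overlap between these groups, so its part and that of resveratrol cannot be told apart. With that number as a covariate, PER2 changed by 0.73 (limma adjusted p = 0.385) and NR1D2 by 0.86 (limma adjusted p = 0.247), and neither passed. With only the 9 arrays of the groups in the fit they did not pass either (limma adjusted p = 0.121 and 0.0649). The summed intensity of the 8 adipocyte markers was 21880 to 33638 with resveratrol and 31758 to 37896 with HFS, and 5 of 5 erythroid markers were lower with resveratrol (median -0.46, 0 passing). Their part in the result was not tested.

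No other member of the repressor arm passed. CRY1 (ILMN_1760593) read 8.29, 8.65, 8.63 and 8.86 with resveratrol, against 8.42, 8.43, 8.18, 8.04 and 8.20 with HFS, overlapping through the first resveratrol array, with a change of 0.35 ± 0.19 (SE, limma adjusted p = 0.445). Its second probe, ILMN_2202637, gave 6.37, 6.96, 6.41 and 6.92 with resveratrol, against 5.97, 5.86, 4.94, 5.22 and 5.37 with HFS, where the value of 4.94 was not detected. The groups of the second probe did not overlap, but its change of 1.20 ± 0.37 did not pass (SE, limma adjusted p = 0.0661, where 3.39% of 21710 probes passed). PER3 changed by -0.10 ± 0.26 and CRY2, mostly near background, by -0.01 ± 0.14 (SE, limma adjusted p = 0.945 and 0.985). NR1D1, the REV-ERB alpha repressor, was detected on 3 of 4 resveratrol and 1 of 5 HFS arrays, the groups overlapped, and the change was 0.14 ± 0.11 (SE, limma adjusted p = 0.694).

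Neither gene of the activating pair passed. BMAL1 read 5.37, 5.61, 5.62 and 5.65 with resveratrol, against 6.24, 5.34, 5.77, 5.56 and 5.79 with HFS, a change of -0.18 ± 0.29 (SE, limma adjusted p = 0.895). CLOCK read 8.07, 8.64, 8.57 and 8.46 with resveratrol, against 8.38, 8.48, 7.66, 7.60 and 8.56 with HFS, a change of 0.30 ± 0.28 (SE, limma adjusted p = 0.743). Both genes overlapped between the groups. The 95% intervals of the change ran from -0.77 to 0.42 for BMAL1 and from -0.27 to 0.87 for CLOCK.

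**Figure D2:**
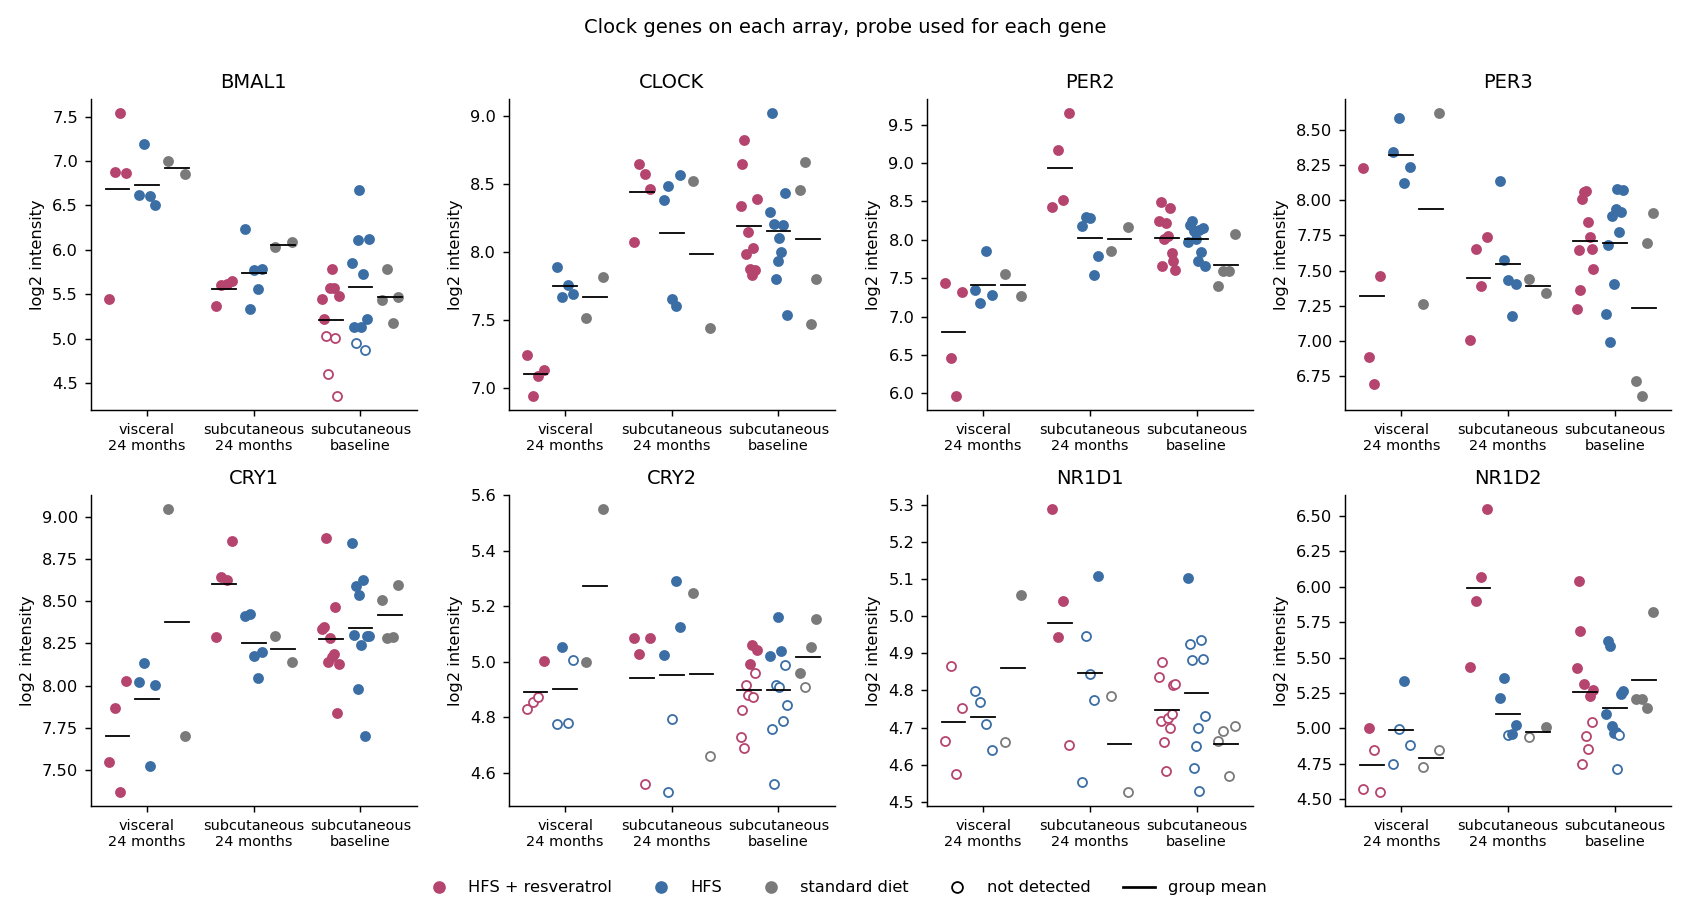
Log2 intensity (y axis) of the 8 tested clock genes on each of the 45 arrays, by depot and time (x axis) and diet (colour). Filled points were detected, open points were not, and bars are group means. PER2 and NR1D2 stand highest in subcutaneous fat at 24 months with resveratrol, and BMAL1 stands higher in visceral fat than in subcutaneous fat.

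In visceral fat the same addition of resveratrol gave no passing member: 0 of 7 passed, where 0% of all 11657 genes passed in limma's test and 23.7% had an unadjusted p under 0.05, as did 2 of the 7 members. All 7 changes were below 0, with a median of -0.22 against -0.08 over all genes. Among them NR1D1 was detected on 0 of 4 arrays in either group and CRY2 on 1 of 4 in each. The signs of their changes (-0.015 and -0.0135) are therefore not measured falls, and the share of all genes below 0 is not given. CLOCK read 7.24, 6.94, 7.09 and 7.13 with resveratrol, against 7.89, 7.67, 7.76 and 7.69 with HFS. These did not overlap, and the change was -0.65 ± 0.19 (SE, limma adjusted p = 0.104). The second CLOCK probe gave -0.10 (limma adjusted p = 0.704), and the mean of both probes -0.37 (limma adjusted p = 0.19). PER3 read 8.23, 6.89, 6.70 and 7.46 with resveratrol, against 8.34, 8.58, 8.12 and 8.23 with HFS, a change of -1.0 ± 0.37 (SE, limma adjusted p = 0.147).

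The first visceral resveratrol array stood nearest to the HFS arrays in PER3 and CLOCK and farthest below the others in BMAL1. Without it, CLOCK fell by 0.70 (limma adjusted p = 0.0452) and PER3 by 1.30 (limma adjusted p = 0.0313). Of the 8 arrays left out 1 at a time, only this array gave either call. The share of all genes passing without it is not given, so these calls are not read as particular to clock genes. PER2 read 7.44, 6.46, 5.96 and 7.32 with resveratrol, against 7.35, 7.18, 7.86 and 7.28 with HFS, overlapping, with a change of -0.62 ± 0.34 (SE, limma adjusted p = 0.274). CRY1, CRY2, BMAL1 and NR1D1 had changes between -0.22 and -0.01. Smooth muscle and pericyte markers moved the other way in this comparison, 6 of 6 above 0 with 0 passing and a median of 1.04 against -0.08 over all genes. Their summed intensity was 19837 to 47061 with resveratrol and 16831 to 27327 with HFS, where 2 of the 6 were detected on no array, and their part in the clock gene values was not tested.

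**Figure D3:**
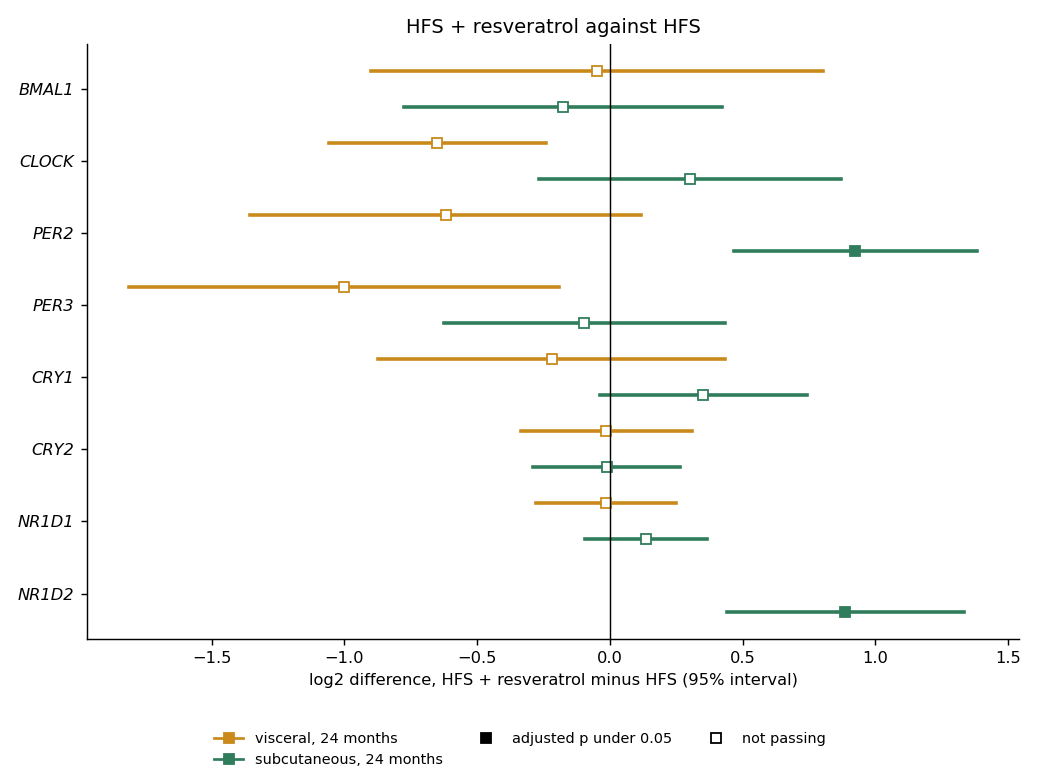
Log2 difference of HFS with resveratrol minus HFS (x axis) for each tested clock gene (y axis) in visceral and subcutaneous fat at 24 months. Squares are estimates, lines are 95% intervals, and filled squares passed at an adjusted p under 0.05. PER2 (0.92) and NR1D2 (0.89) in subcutaneous fat are the filled ones, and NR1D2 was not tested in visceral fat.

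The resveratrol effect on PER2 differed between the depots, and NR1D2 passed the same test with its visceral side near background. The effect in visceral fat minus that in subcutaneous fat was -1.54 ± 0.36 for PER2 and -1.14 ± 0.30 for NR1D2 (SE, limma adjusted p = 0.017 and 0.0315). The fit called these 2 of 8 members, both downwards, where 2.7% of all 12917 genes passed, 1.66% downwards. NR1D2 entered this fit only through subcutaneous groups, so of the 2 calls only that of PER2 compares effects measured in both depots. NR1D2 was detected on 1 of 4 resveratrol and 1 of 4 HFS arrays of visceral fat and was not kept in the visceral fit, so its effect there is not measured. CLOCK gave -0.95 ± 0.37 and PER3 -0.90 ± 0.42 (SE, limma adjusted p = 0.152 and 0.23). Smooth muscle and pericyte markers moved the other way in this difference, 6 of 6 above 0 with 1 passing. Their median was 1.32, against -0.02 over all genes, and their part in the difference was not tested. With the number of detected probes as a covariate both passed, PER2 at -1.47 and NR1D2 at -1.12 (limma adjusted p = 0.0168 and 0.0288). With the replicate block NR1D2 did not pass (-1.09, limma adjusted p = 0.0728), but a shared number marks 1 animal in only 3 of 10 visceral and subcutaneous pairs. With the animal itself as a random block NR1D2 passed (-1.07, limma adjusted p = 0.0332). PER2 did not pass without visceral resveratrol array 3 or subcutaneous resveratrol array 4 (limma adjusted p = 0.063 and 0.0593), and for NR1D2 the same held for 9 of the 17 arrays, each left out alone (highest limma adjusted p = 0.0955). PER2 also did not pass with only the compared arrays (limma adjusted p = 0.057), with median scaling (0.05) or as the mean of its probes (-0.57, limma adjusted p = 0.0745), and NR1D2 changed by -0.53 without background correction.

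Against the standard diet, resveratrol in subcutaneous fat at 24 months gave 0 of 8 passing members in limma's test, with 3 at an unadjusted p under 0.05, where 0.791% of all genes passed and 10.2% were at an unadjusted p under 0.05. PER2 was at 7.85 and 8.17 and NR1D2 at 4.94 (not detected) and 5.01 on the standard-diet arrays, below all 4 resveratrol arrays listed above. The changes were 0.93 ± 0.29 for PER2 and 1.01 ± 0.28 for NR1D2 (SE, limma adjusted p = 0.148 and 0.088). This comparison and the one against HFS share the resveratrol arrays. HFS against the standard diet gave 0 of 8 members in subcutaneous fat (0% of all genes passed, and 0 members and 1.89% of genes had an unadjusted p under 0.05), with changes from -0.32 in BMAL1 to 0.19 in NR1D1. In visceral fat HFS against the standard diet gave 0 of 7 (0.00858% of genes) and resveratrol against the standard diet 0 of 7 (0.00858%), with 0 members (4.91% of genes) and 1 member (9.89% of genes) at an unadjusted p under 0.05.

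Over the 24 months of HFS with resveratrol, PER2 passed upwards in subcutaneous fat. NR1D2 passed upwards in the fit without a block, but in none of the blocked fits given below. PER2 averaged 8.94 ± 0.58 (SD, n = 4) at 24 months and 8.02 ± 0.32 (SD, n = 10) at baseline, where it ranged from 7.60 to 8.50 with a median of 8.03. All 4 of the 24-month arrays lay above the baseline mean, and the lowest lay inside the baseline range. The change was 0.92 ± 0.20 (SE, limma adjusted p = 0.00225). NR1D2 averaged 5.99 ± 0.46 (SD, n = 4) at 24 months and 5.26 ± 0.39 (SD, n = 10) at baseline, overlapping, with a change of 0.73 ± 0.19 (SE, limma adjusted p = 0.012). These 2 of 8 members compare with 11.4% of all genes passing, 6.92% upwards. Macrophage markers were higher at 24 months with resveratrol in 6 of 6 (median 0.99, 2 passing), with a summed intensity of 11085 to 16965 at 24 months and 1709 to 11984 at baseline. Erythroid markers were lower in 5 of 5 (median -0.93, 0 passing). On HFS alone, where no member passed over time, the macrophage median was 0.79 (6 of 6 above 0, 0 passing) and the erythroid median -1.33 (4 of 5 below 0, 0 passing). Their part in the PER2 and NR1D2 values was not tested.

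Each 24-month subcutaneous array has a baseline array of the same animal. Within the 4 resveratrol animals PER2 changed by 0.19, 0.68, 0.86 and 1.93. It changed by 0.20, 0.10, 0.04, -0.57 and -0.06 in the 5 HFS animals and by 0.46 and 0.57 in the 2 standard-diet animals. So PER2 was higher at 24 months in 4 of 4 resveratrol animals, 3 of 5 HFS animals and 2 of 2 standard-diet animals. NR1D2 changed by 0.01, -0.14, 0.38 and 1.50 in the resveratrol animals, so most of its mean change came from animal 4, which is also the animal with the largest PER2 change and the only one of these 4 whose baseline array is of set B.

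With the replicate block PER2 passed (0.84, limma adjusted p = 0.0435) and NR1D2 did not (0.51, limma adjusted p = 0.233). That block goes by replicate number and ties animal 4 to a baseline array of another animal, since its own has number 9. PER2 also passed with the animal as a fixed block. NR1D2 did not pass either with the array set as a block (0.47, limma adjusted p = 0.161), with the animal as a fixed block (0.44, limma adjusted p = 0.264), with only the compared arrays (limma adjusted p = 0.0618) or without animal 4 at 24 months (0.55, limma adjusted p = 0.125), and it changed by 0.33 without background correction (limma adjusted p = 0.0105). Neither PER2 nor NR1D2 passed with the number of detected probes as a covariate (limma adjusted p = 0.196 and 0.189), nor did the mean of the PER2 probes (0.24, limma adjusted p = 0.143). Within set A alone PER2 changed by 0.81 (limma adjusted p = 0.132) and NR1D2 by 0.27 (limma adjusted p = 0.539). At baseline NR1D2 averaged 5.48 ± 0.31 (SD, n = 8) in set A and 5.09 ± 0.27 (SD, n = 16) in set B, whereas PER2 averaged 7.98 ± 0.39 and 7.95 ± 0.24.

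**Figure D4:**
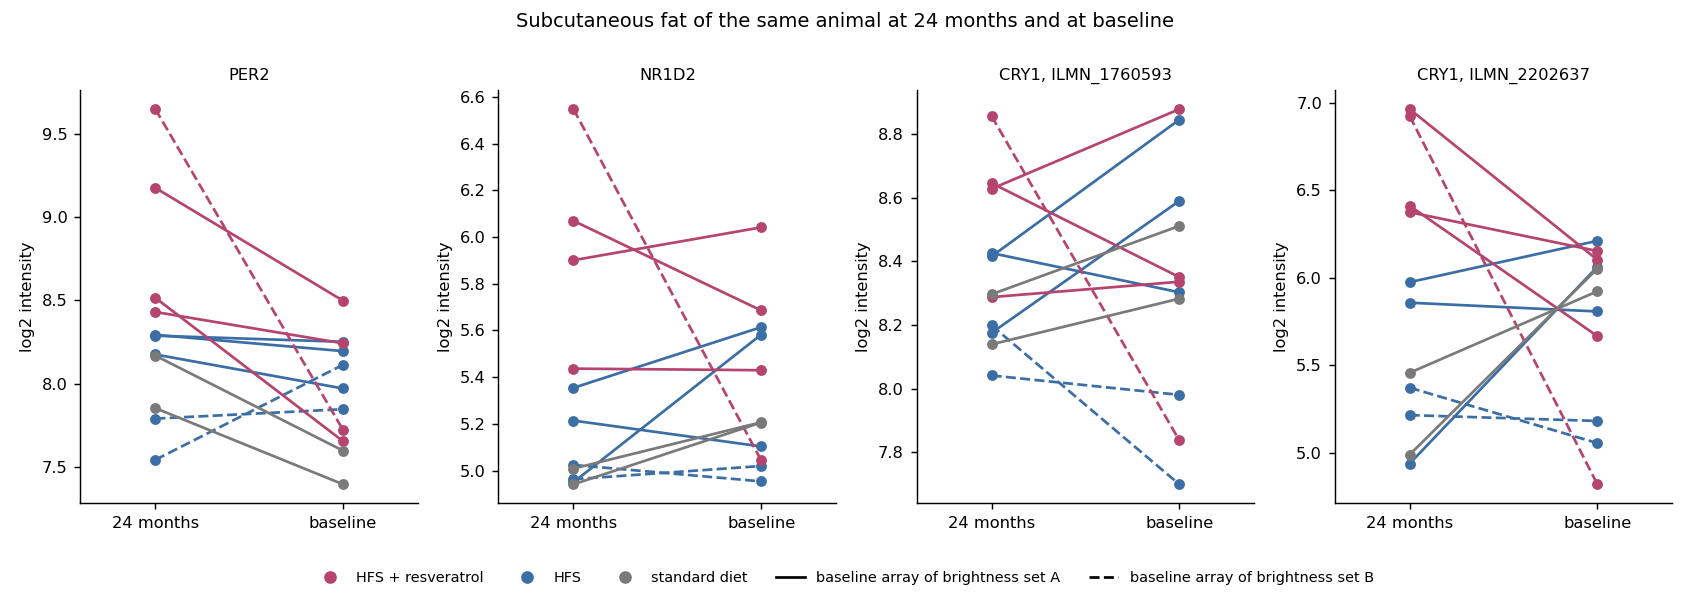
Log2 intensity (y axis) of PER2, NR1D2 and both CRY1 probes in subcutaneous fat of the same animal at 24 months and at baseline (x axis), 1 line per animal, coloured by diet and dashed where the baseline array is of set B. All 4 resveratrol lines are higher at 24 months for PER2 and for CRY1 probe ILMN_2202637.

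CRY1, the partner of the PER proteins in repression, changed by 0.33 ± 0.17 over time with resveratrol at its bright probe (SE, limma adjusted p = 0.211). Its second probe rose by 1.53 ± 0.33 (SE, limma adjusted p = 0.00123, where 13.3% of 21710 probes passed), and within the 4 animals by 0.22, 0.86, 0.74 and 2.10. The mean of both probes rose by 0.93 (limma adjusted p = 0.00444). That probe moved with the array set at baseline, 6.0 ± 0.18 (SD, n = 8) in set A and 4.84 ± 0.30 (SD, n = 16) in set B, and set A holds all 24-month arrays. The set's part in the rise was not tested. PER3 and CLOCK also differed between the sets at baseline, PER3 at 7.18 ± 0.39 in set A and 7.85 ± 0.20 in set B, and CLOCK at 8.56 ± 0.28 and 7.96 ± 0.26 (SD, n = 8 and 16).

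Over 24 months of HFS alone, 0 of 8 members passed, where 1.01% of all genes did, and all 8 changes lay between -0.15 and 0.16 (0 members and 14.7% of genes at an unadjusted p under 0.05 in limma's test). On the standard diet 0 of 8 passed (0% of genes in limma's test, with 0 members and 7.86% of genes at an unadjusted p under 0.05), with changes from -0.37 in NR1D2 to 0.59 in BMAL1. The change over time with resveratrol minus that with HFS was 0.91 ± 0.27 for PER2 and 0.77 ± 0.26 for NR1D2 (SE, limma adjusted p = 0.12 and 0.205). Of 8 members 0 passed and 2 had an unadjusted p under 0.05, where 0.841% of all genes passed and 9.98% had an unadjusted p under 0.05, so the rise over time is not shown to differ between the 2 diets. Before the diets the animals assigned to resveratrol and to HFS differed in 0 of 8 members (0% of genes), and those assigned to HFS and the standard diet in 0 of 8 (0.00824%), with 0 members at an unadjusted p under 0.05 in either by limma's test, where 2.37% and 2.93% of genes were.

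BMAL1, the activating partner of CLOCK, was higher in visceral than in subcutaneous fat on HFS and with resveratrol. On HFS it read 6.62, 7.19, 6.60 and 6.50 in visceral fat, against 6.24, 5.34, 5.77, 5.56 and 5.79 in subcutaneous fat. The groups did not overlap, and the change was 0.99 ± 0.32 (SE, limma adjusted p = 0.0251). BMAL1 was 1 of 8 members to pass on HFS, where 18.7% of all genes passed, 11.2% upwards. With resveratrol BMAL1 read 5.45, 6.87, 7.54 and 6.87 in visceral fat, against 5.37, 5.61, 5.62 and 5.65 in subcutaneous fat, overlapping through the first visceral array, with a change of 1.12 ± 0.34 (SE, limma adjusted p = 0.00831). On the standard diet it read 7.00 and 6.85 in visceral fat, against 6.03 and 6.08 in subcutaneous fat, a change of 0.87 ± 0.48 that did not pass (SE, limma adjusted p = 0.379).

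In the 4 animals with both depots on the arrays, BMAL1 was higher in visceral fat in 4 of 4, by 1.27 in the resveratrol animal, 1.28 and 0.83 in the HFS animals and 0.97 in the standard-diet animal. On HFS the BMAL1 call was lost without array 2 of either depot (visceral left out, limma adjusted p = 0.0963; subcutaneous left out, 0.0711), and with resveratrol without visceral array 3 (limma adjusted p = 0.0652). With median scaling BMAL1 passed in neither (limma adjusted p = 0.087 on HFS and 0.0821 with resveratrol), with the deposited scores it did not pass on HFS (limma adjusted p = 0.069), and without background correction it changed by 0.53 and 0.62 (limma adjusted p = 0.0189 and 0.00418). Summed mesothelial markers, which mark the lining of visceral fat, were 934 to 2224 in visceral and 293 to 677 in subcutaneous fat with resveratrol and 709 to 948 and 322 to 749 with HFS. T cell markers were higher in visceral fat in 3 of 3 on both diets, with medians of 1.25 on HFS (2 passing) and 0.97 with resveratrol (1 passing), and mesothelial markers in 6 of 8, with medians of 0.68 (3 passing) and 1.30 (5 passing). Smooth muscle and pericyte markers had a median of 1.28 with resveratrol (6 of 6 above 0, 3 passing) and -0.02 on HFS (1 of 6 above 0, 0 passing). The part of these markers in the BMAL1 difference was not tested.

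With resveratrol, 5 of 8 members passed between depots, BMAL1 upwards and PER2, CRY1, CLOCK and NR1D2 downwards, where 35.8% of all genes passed, 20.1% upwards and 15.8% downwards. PER2, with the values given above for both depots, was 4.43-fold lower in visceral fat without overlap, by -2.15 ± 0.26 (SE, limma adjusted p = 4.92e-08). On HFS the same difference was -0.60 ± 0.25 and on the standard diet -0.60 ± 0.37 (SE, limma adjusted p = 0.0879 and 0.448). CLOCK was lower by -1.34 ± 0.27 and CRY1 by -0.90 ± 0.23 (SE, limma adjusted p = 0.000166 and 0.00167), both without overlap. As means of their probes PER2 changed by -0.66, CLOCK by -0.77 and CRY1 by -1.48, and NR1D2 changed by -0.57 without background correction. These 4 values passed as well (highest limma adjusted p = 0.000334).

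NR1D2 read 4.57, 5.00, 4.84 and 4.55 in visceral fat with resveratrol, where the array at 5.00 was detected, against 5.44, 5.90, 6.07 and 6.55 in subcutaneous fat, a change of -1.25 ± 0.22 (SE, limma adjusted p = 2.48e-05). With 3 of the 4 visceral arrays not detected, the visceral level is near background and the size of this change is uncertain. NR1D2 was also kept in this fit only through subcutaneous groups. The second CRY1 probe was undetected on all 10 visceral arrays and at least 3.25-fold lower in visceral fat with resveratrol (limma adjusted p = 1.58e-05, where 31.9% of probes passed). This probe was likewise kept only through subcutaneous groups. Within subcutaneous fat at baseline it averaged 6.0 in set A and 4.84 in set B. The visceral arrays are a set of their own, so depot and array set cannot be told apart in this bound. On the standard diet 0 of 8 members passed between depots, with 0 at an unadjusted p under 0.05 in limma's test, where 2.39% of all genes passed and 15.8% had an unadjusted p under 0.05.

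**Figure D5:**
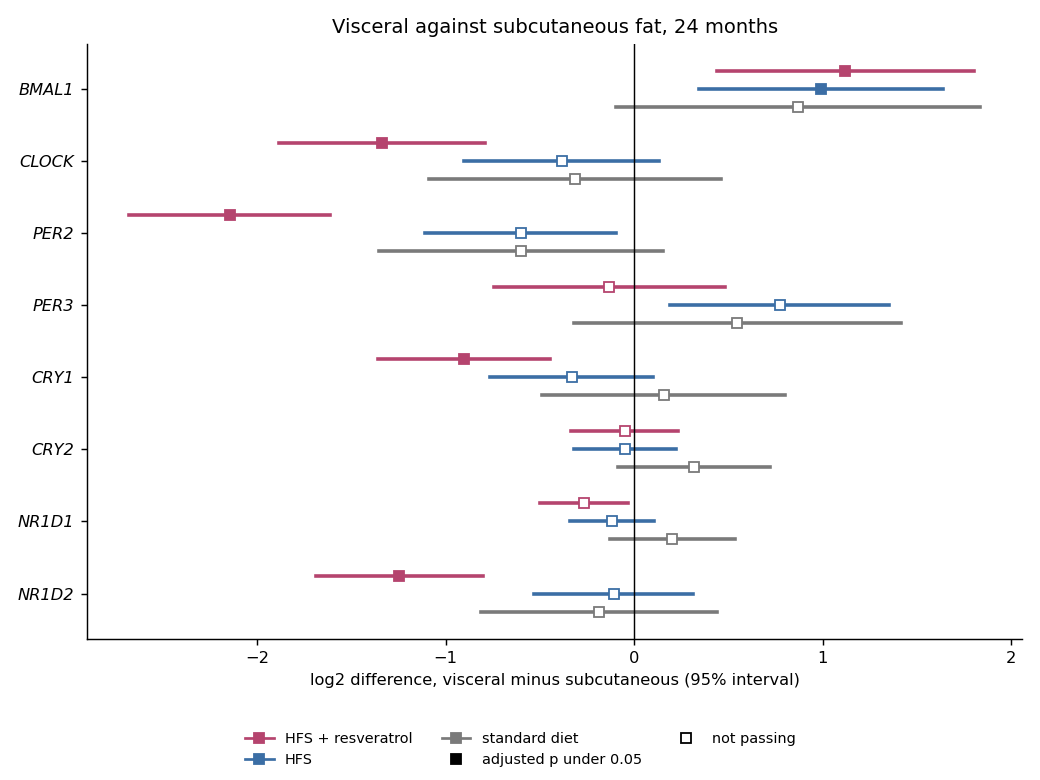
Log2 difference of visceral minus subcutaneous fat at 24 months (x axis) for each tested clock gene (y axis), by diet. Squares are estimates, lines are 95% intervals, and filled squares passed at an adjusted p under 0.05. BMAL1 lies above 0 in the 3 diets, and PER2 (-2.15), CLOCK (-1.34) and NR1D2 (-1.25) lie lowest with resveratrol.

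Ordered over the 9 groups, PER2 was highest in subcutaneous fat at 24 months with resveratrol (8.94 ± 0.58, SD). The other subcutaneous groups followed, from baseline resveratrol (8.02 ± 0.32) through HFS (8.02 ± 0.34) and the standard diet (8.01 ± 0.22) at 24 months. The baseline HFS (8.01 ± 0.20) and standard-diet (7.67 ± 0.29) groups came next. These last 2 overlapped and differed by 0.34 ± 0.20 (SE, limma adjusted p = 0.999), and the other subcutaneous neighbours below the highest group did not differ beyond their spread. Visceral fat came last, with HFS at 7.42 ± 0.30, the standard diet at 7.41 ± 0.21 and resveratrol at 6.80 ± 0.71. BMAL1 ran the other way by depot, from 6.93 ± 0.11 on the standard diet, 6.73 ± 0.31 on HFS and 6.68 ± 0.88 with resveratrol in visceral fat to 5.21 ± 0.46 in the baseline resveratrol group.

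A wider list of 30 clock-linked genes, 27 of them with a named probe, was read beside the members. In subcutaneous fat at 24 months with resveratrol against HFS, 1 of 23 tested rose and 0 fell, where 2.23% of all genes passed, with a median of -0.03 against -0.04 over all genes. That gene was NOCT, whose product nocturnin is a rhythmically expressed phosphatase, detected on 4 of 4 resveratrol and 0 of 5 HFS arrays, at least 1.15-fold higher (limma adjusted p = 2.26e-05). Over time with resveratrol 4 rose and 2 fell of 23, where 11.4% of all genes passed, 6.92% upwards, among them NOCT, WEE1, a cell cycle kinase (0.79 ± 0.21), PPARGC1A, a coactivator of mitochondrial genes (-1.86 ± 0.42), and TEF, a relative of DBP (-1.01 ± 0.28) (SE, limma adjusted p = 3.39e-07, 0.0114, 0.00296 and 0.0151). Between depots 4 rose and 7 fell of 25 with resveratrol, where 35.8% of all genes passed, 20.1% upwards and 15.8% downwards. On HFS, where 18.7% passed, 1 of the 25 rose (BTRC, a subunit of a ubiquitin ligase that marks PER proteins, 1.25 ± 0.27) and 1 fell (KLF10, a transcription factor, -1.19 ± 0.37) (SE, limma adjusted p = 0.00104 and 0.0194). The wider list had 0 passing of 22 in visceral fat with resveratrol against HFS, where 0% of all genes passed in limma's test.

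PER1 and PER2 are also targets of the glucocorticoid receptor and can respond early to stimuli, so both kinds of gene were read as well. In subcutaneous fat with resveratrol against HFS, 1 of 9 tested glucocorticoid targets and 1 of 16 immediate early genes passed, where 2.23% of all genes did, in each case DUSP1, a phosphatase of MAP kinases on both lists (2.11 ± 0.27, SE, limma adjusted p = 6.49e-06). The medians were 0.16 and 0.35, against -0.04 over all genes. The glucocorticoid target FKBP5 changed by 0.76 (limma adjusted p = 0.267). Over time with resveratrol 1 of 9 glucocorticoid targets (DUSP1 again) and 4 of 16 immediate early genes rose and 0 fell, where 11.4% of all genes passed, 6.92% upwards, with medians of 0.20 and 0.74, against -0.05 over all genes. Between depots with resveratrol, 4 of 9 glucocorticoid targets were lower in visceral fat and 0 higher. Of 16 immediate early genes 4 were lower and 1 higher. The medians were -0.48 and -0.27, against 0.06 over all genes, of which 15.8% passed downwards and 20.1% upwards. On HFS 1 of 9 and 1 of 16 were lower and 0 higher, where 18.7% of all genes passed. The part of either response in the PER2 and NR1D2 values was not tested.

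Among the 24 baseline arrays, 1 per animal, no pair of clock genes was correlated beyond the test. Of 28 pairs of 8 genes, 0 passed after adjustment (two-sided permutation test, smallest adjusted p = 0.1555) and 6 had an unadjusted p under 0.05, with Pearson r from -0.49 to 0.49. The lowest, PER3 with CLOCK (r = -0.49, Spearman rho = -0.55, permutation p = 0.0144 and 0.0052, adjusted p = 0.1555 and 0.1286), did not hold within array sets, where r was 0.47 in set A and -0.12 in set B. Without the 2 arrays farthest from the median of PER3 it was -0.40.

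The genes whose baseline pattern was most like a member's, by Pearson r of deviations from the array set mean over 24 arrays and 12122 genes, were KCNMA1 (0.77), NFIB (0.75) and LIG3 (0.72) for PER2. For PER3 they were FAM32A (0.76), NASP (0.75) and SUPT16H (0.74), and for CRY1 LRRFIP2 (0.75), ARHGAP27P1 (0.75) and LITAF (0.72). OSR2, LMX1A and LIMCH1 (0.79 each) followed BMAL1, KCNIP1 (0.76), THAP6 (0.71) and TAOK3 (0.70) followed CLOCK, and SMC6 (0.77), GTPBP10 (0.73) and SLC38A8 (0.71) followed NR1D2. These are the highest of many values and are given as a description. The members themselves were left out of the 12122 genes compared, so no other member could be among them.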

How the data were processed

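Expression was measured in 45 fat samples on human HT-12 V4 bead arrays. The authors deposited linear intensity values that were not scaled between arrays, exported with GenomeStudio 1.9.0 per the submitters' processing notes, with a detection p-value beside each, per the file headers. A second deposited table holds a score that equals, to within 5e-10, the natural log intensity minus the array's mean over its standard deviation. Probes were named by GEO's platform annotation, with 30113 of 47231 probes given 1 symbol, 8 several and 17110 none. A further 92 probes were empty on the subcutaneous arrays and not used.

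From these, neqc (limma 3.58.1, R 4.3.3) corrected the background by detection p-values, added an offset of 16 and quantile normalized the 45 arrays together, giving log2 values. The deposited scores entered only as an alternative. The brightest kept probe by mean stood for a gene. Fits used lmFit and eBayes with a variance trend: 10 visceral arrays (11657 genes, 7 residual degrees of freedom), 35 subcutaneous (12130, 29) and all 45 (12917, 36), each with 1 mean per group. There were 16 comparisons, adjusted within each. The spread is between animals, and groups of 2 arrays add little to it, and the number of arrays limits the precision. Where a group was undetected on all arrays, a fold is given as a lower bound: the bright group's mean against the dim group's mean of, per array, the higher of the lowest detected signal and the probe's own. Tested on simulated data of the subcutaneous comparison of resveratrol with HFS over 12130 genes, the fit recovered 55 of 100 genes changed by 1 on the log2 scale and 90 of 100 changed by 2. Correlations used 100000 permutations (Python 3.11.15, numpy 2.4.6, scipy 1.17.1).

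The members, the gene lists and the tests were chosen with earlier results of these data known. Named genes are the 10 members, up to 4 of the wider list in a comparison by smallest p, up to 3 of the other lists, and the 3 genes most like a member. Array sets were read from the decimals written and the brightness. Same-numbered subcutaneous arrays over time came from 1 animal in 9 of 11 pairs, by the animal names in the deposited columns, and their residuals correlated at -0.332 to 0.481, 8 of 11 above 0.1, so blocked values are given where they change a call. Alternatives covered background correction, scaling, the deposited scores, the filter, the probe rule, the arrays fitted, array weights, blocks and each array left out. No sequence or coordinate is given, since no build or sequence of the probes was used here.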

Additional observations from a re-analysis of the deposited data

Results flagged for a closer look

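Of 56 groups of 4 to 10 arrays examined for an array that stands apart from the rest of its group, 3 had one, and chance alone gives about 1 in 20 (5%). CRY2 read 4.56 (not detected) on the third subcutaneous resveratrol array at 24 months, against 5.03 to 5.09 on the other arrays of that group. BMAL1 read 5.37 on the first array of the same group, against 5.61 to 5.65 on the others. NR1D2 read 5.82 on the fourth baseline array of the standard-diet animals, against 5.14 to 5.21 on the others.

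The effect of resveratrol differed between depots in PER2 by the test of the difference itself, and NR1D2 passed it too, with its visceral side near background (1 of 4 resveratrol and 1 of 4 HFS arrays detected) and its visceral effect not measured. Visceral minus subcutaneous effect was -1.54 for PER2 and -1.14 for NR1D2 (limma adjusted p = 0.017 and 0.0315). The depot is one with the array set, and the number of detected probes was higher with resveratrol in both depots, 16163 ± 796 against 15173 ± 166 with HFS in visceral fat and 17767 ± 759 against 16012 ± 272 in subcutaneous fat (SD). With that number as a covariate the differences were -1.47 and -1.12, and both passed (limma adjusted p = 0.0168 and 0.0288). In subcutaneous fat alone neither effect of resveratrol passed with that covariate (limma adjusted p = 0.385 and 0.247). Across 28 alternatives the difference between depots passed in 23 for PER2 and in 18 for NR1D2.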

How the results depend on the processing

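Of 2222 values of single members under alternatives, 2077 kept their direction and their side of the threshold or moved by less than 1 standard error, 49 lost and 35 gained a call, 56 moved further, and 5 reversed. Within these classes 198 changed sign with neither value passing. The reversals are PER2 by its dim probes alone: ILMN_1668708 gave -0.20 for resveratrol against HFS in subcutaneous fat, -0.17 over time and 0.14 between depots with resveratrol, and ILMN_1740915 gave -0.044 and 0.025 for the last 2. The dimness of these probes limits what they measure. The count of passing members moved as follows, and the cause was not tested. The share of all genes passing under each alternative is not given, so these counts are not read as particular to clock genes. For resveratrol against HFS in subcutaneous fat (2), it was 1 with the mean of kept probes, 0 with only the compared arrays, 0 with detected probes as a covariate (chosen after seeing the data), and 0 to 2 leaving out 1 array. In visceral fat (0) it was 3 with array weights and 0 to 2 leaving out 1 array. Against the standard diet in subcutaneous fat (0) it was 1 at an adjusted p under 0.1, 1 with median scaling, 2 with the deposited scores, 1 with the array set as a block, and 0 to 1 leaving out 1 array. Over time with resveratrol (2) it was 1 with only the compared arrays, 1 with the replicate block, 1 with the array set as a block, 1 with the animal as a fixed block, 0 within set A, 0 with the covariate, and 2 whichever array of the 24-month group was left out, though without array 4 NR1D1 passed (0.34, limma adjusted p = 0.0499) in place of NR1D2. NR1D1 was detected on 0 of 10 baseline resveratrol arrays and was kept only through the 24-month resveratrol group. Its call therefore rests on the group where it is high, against a baseline near background. The count over time with resveratrol was also 2 with the mean of kept probes, with CRY1 in place of PER2. For that change minus the one with HFS (0) it was 2 with median scaling, 2 with the deposited scores, 1 with array weights, and 0 to 1 leaving out 1 array. Between depots on HFS (1) it was 3 at an adjusted p under 0.1, 2 without background correction, 2 with the filter at a detection p under 0.01, 2 with only the compared arrays, 3 with array weights, 2 with the animal as a random block, and 0 to 2 leaving out 1 array, and with median scaling or the deposited scores the 1 was PER3 in place of BMAL1. With resveratrol (5) leaving out 1 array gave 4 to 6. For the difference of the resveratrol effect between depots (2) it was 1 with median scaling, 1 with the mean of kept probes, 1 with only the compared arrays, 4 with array weights, 1 with the replicate block, and 0 to 2 leaving out 1 array. The replicate block changed no other count of passing members by over 1.5 times. The correlations gave 0 passing pairs under all 4 alternatives.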
